A study of Mus musculus with 12 samples.

Results

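Amygdala RNA was compared between mice that spent little and much of an elevated plus maze run on its open arms. The maze is a raised cross with walled and unwalled arms, and mice that avoid the unwalled arms are read as more anxious. The groups were set by 1 sample label, the percent of time on the open arms. Low open-arm time here means below 8%, with 4 mice (mice 1, 2, 9 and 10), and above 14%, with 7 mice, is called high open-arm time (mice 3, 4, 6, 7, 8, 11 and 12). Together they were 11 of the 12 mice sequenced. Mouse 5, at 7.34%, also lies below 8%, but it was left out because the study removed it as an outlier by principal component analysis, and it has no anxiety state in the labels. All were females of the inbred strain C57/BL6, bought at 7 weeks of age and run in the maze at 9 weeks, and the labels name no allele, agent or dose in either group. Each mouse gave 1 library from its left and right amygdala together, and all libraries were read in a single sequencing run with no batch named in the labels.

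The amygdala joins a cortex-like basolateral part, rich in glutamatergic projection neurons, to central and medial nuclei rich in GABAergic and peptidergic cells. It weighs sensory cues of threat and drives avoidance through the hypothalamus and brainstem. Corticotropin-releasing factor, opioids, cholecystokinin, serotonin and glucocorticoids act on it and are the signals most often linked to maze behavior. The comparison asked which of these systems, and which genes at large, differed with the time a mouse had spent on the open arms.

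Libraries held 31745630 to 45142355 estimated counts, and 26963 genes with at least 10 counts over the 11 mice were tested with edgeR's quasi-likelihood test. Values below are CPM, counts relative to the size of the library, scaled by trimmed-mean factors, and fold changes are log2, low minus high, so a negative value is lower in the low group. Markers of basolateral neurons such as Slc17a7, the vesicular glutamate transporter, summed to between 3312 and 5285 CPM in every mouse. Markers of central amygdala neurons summed to between 232 and 519 CPM. Defining markers of neighboring tissue were present too. Those of striatal medium spiny neurons summed to 411 to 617 CPM in the low and 403 to 1038 CPM in the high group, those of choroid plexus to 13.1 to 29.6 and 19.9 to 34.9 CPM, and those of pituitary to 2.62 to 6.47 and 3.19 to 58.1 CPM. In bulk tissue fewer cells of a type and less RNA per cell cannot be told apart.

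Open-arm time chose the groups and is given as a description. It was 6.73% in mouse 1, 2.33% in mouse 2, 4.30% in mouse 9 and 3.25% in mouse 10, against a lowest value of 14.7%, a median of 20.1% and a highest value of 29.2% in the high group. The values nearest the limits were the 6.73% of mouse 1 and the 14.7% of mouse 8. The other 6 measures were tested with a two-sided exact permutation test over all arrangements of the mice.

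The low group made fewer entries into the arms of the same maze, although the difference did not pass correction. Total entries were 15, 6, 22 and 31 in mice 1, 2, 9 and 10, and 24 to 42 with a median of 30 in the high group, so mice 1, 2 and 9 lay below every high mouse and mouse 10 lay among them. The means were 18.5 ± 10.6 (SD, n = 4) and 31.4 ± 5.88 (SD, n = 7), with an exact p of 0.0273 and 0.164 after adjustment over the 6 measures. In the light/dark box, run at 10 weeks, mice choose between a lit and a dark compartment. Time in the light was 20.1% ± 9.09 (SD, n = 4) in the low and 27.6% ± 9.68 (SD, n = 7) in the high group, with an exact p of 0.248 and an adjusted value of 0.486. The share of distance travelled in the light was 24.8% ± 9.24 against 31.8% ± 6.38, with an exact p of 0.164 and an adjusted value of 0.486. In both measures mouse 1, the low mouse nearest the limit, had a value above the high median. The social test at 11 weeks set a stranger mouse in a box and measured the ratio of time beside the box to time in the zone around it. This box:zone ratio after 3 min was 1.26 ± 0.479 in the low group and 0.928 ± 0.491 in the 6 high mice with a value, with an exact p of 0.324. After 5 min it was 1.08 ± 0.402 and 1.15 ± 0.537, with an exact p of 0.845, and after 10 min 1.06 ± 0.422 and 1.21 ± 0.726, with an exact p of 0.752. No measure outside the maze separated the groups, and the smallest p that the 330 arrangements of 11 mice can give is 0.00303 (0.00476 at 3 min, with 10 mice). The anxiety state in the labels, which the study derived from the same expression values, was more anxious in 3 low mice and anxious in 1, while the high group held 3 less anxious, 3 anxious and 1 more anxious mouse.

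**Figure D1:**
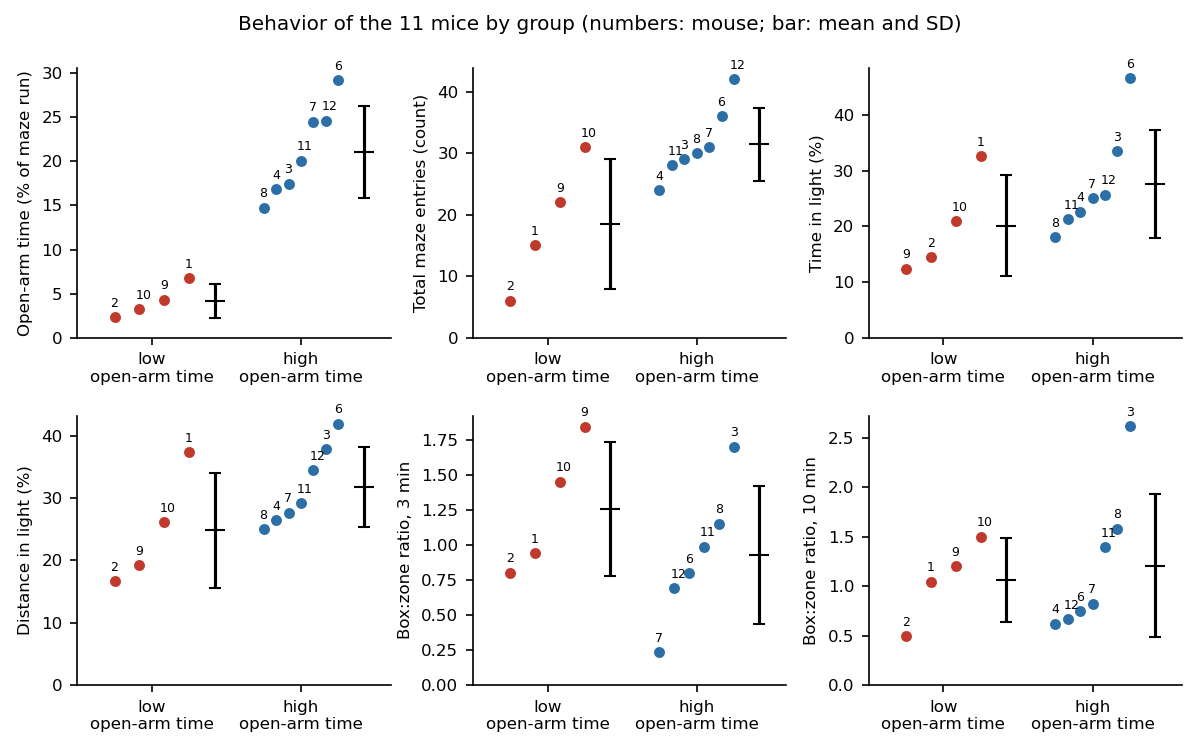
Each point is 1 mouse, numbered, with open-arm time in percent, total maze entries as a count, time and distance in the light in percent and the box:zone ratio at 3 and 10 min on axes from 0; black bars are the mean and SD of each group. Open-arm time separates the groups by construction, while in every other panel the points of the low and high groups overlap.

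No gene passed an adjusted p of 0.05 in edgeR (0 of 26963 tested, 0%), and the smallest adjusted p was 0.136. At an unadjusted p under 0.05 there were 1475 genes (5.47% of those tested), of which 795 were higher (2.95%) and 680 lower (2.52%) in the low group. The fitted value was positive for 13307 genes and negative for 13656, with a median of -0.0031 over all genes tested. DESeq2's Wald test on the same counts called 86 genes (0.427% of 20147 with an adjusted p), 30 higher (0.149%) and 56 lower (0.278%), and limma-voom called 4 (0.0148%). Among the 15891 genes with a mean of at least 1 CPM, the values of the 4 low and 7 high mice did not overlap for 72 genes that were higher in the low group (0.453%) and 73 that were lower (0.459%). Of these, 57 in each direction were protein coding. The median size of the fitted change was 0.35 for those higher and 0.51 for those lower, and 3 of the higher and 19 of the lower genes exceeded 1 on the log2 scale. The genes named next, 10 higher and 9 lower, are among the 10 in each direction with the smallest unadjusted p. They are a description of the strongest separations and not calls.

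Among the 10 genes that were higher in the low group, Zfand5, which encodes a zinc-finger protein that stimulates the proteasome, stood at 187, 193, 200 and 174 CPM in mice 1, 2, 9 and 10, and at 103 to 156 CPM with a median of 132 in the high group. The fitted difference was 0.55 (SE 0.11, adjusted p 0.344), with each low mouse above each high mouse. Fip1l1, a subunit of the machinery that cleaves and polyadenylates mRNA, was at 104, 101, 94.1 and 94.2 CPM against 64.2 to 82.9 CPM. The difference was 0.36 (SE 0.08, adjusted p 0.471). Sap30l, which belongs to the Sin3 histone deacetylase complex, was at 13.7, 15.6, 17.4 and 13.8 CPM in the low group and at 9.02 to 11.8 CPM in the high group, a difference of 0.50 (SE 0.11, adjusted p 0.456). Mthfd2l, a mitochondrial enzyme of one-carbon metabolism, was at 10.5, 12.1, 10.7 and 8.96 CPM against 5.22 to 8.88 CPM. The gap between the lowest low mouse and the highest high mouse was therefore narrow, and the difference was 0.64 (SE 0.14, adjusted p 0.471). Hmga1b, a chromatin protein gene close in sequence to Hmga1, was at 1.61 to 2.36 CPM in the low and at 0.834 to 1.42 CPM in the high group.

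The other 5 genes of this direction are pseudogenes or lie across other genes, so their counts are uncertain. Fip1l1 above overlaps Gm43747 and Lnx1, and Hmga1b is close in sequence to Hmga1, so theirs are uncertain too. Gm49388, annotated as protein coding across Setd1a and Hsd3b7 on chromosome 7, was at 2.64, 7.06, 8.39 and 2.28 CPM in the low group and at 0 in 4 of the 7 high mice, with a highest value of 0.423 CPM. Its fitted difference was 5.26 (SE 0.86, adjusted p 0.292). Tpt1-ps3, a processed pseudogene of the translationally controlled tumor protein gene, was at 109 to 153 CPM in the low and 60.3 to 94.4 CPM in the high group. Tpt1 itself differed by 0.04 (SE 0.14), and the 2 summed to 376 to 450 CPM in the low and 324 to 471 CPM in the high group, which overlap. Gm10157 (14.7 ± 2.17 against 8.46 ± 1.67 CPM), Gm43097 (2.68 ± 0.302 against 1.52 ± 0.275 CPM) and Gm43712 (11.1 ± 0.714 against 4.89 ± 2.17 CPM; SD, 4 and 7 mice) are pseudogenes that overlap Itga9, Fndc7 and Nup210l. Mouse 11 was the high mouse nearest the low group for Gm43712, at 9.39 CPM.

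Among the genes that were lower in the low group were pseudogenes too. Ap3s1-ps1, a pseudogene of a subunit of an adaptor complex for vesicle traffic, was at 1.09, 1.73, 1.02 and 1.39 CPM against 3.26 to 12.0 CPM, a difference of -2.20 (SE 0.38, adjusted p 0.292). Its parent Ap3s1 had the opposite sign, 0.38 (SE 0.14, adjusted p 0.831), and their sum overlapped between the groups (62.3 to 75.0 and 50.3 to 71.5 CPM). How reads of such pairs were shared out between the copies was not tested. Gm20545, another processed pseudogene, was at 1.70 ± 0.547 and 3.70 ± 0.933 CPM (SD, 4 and 7 mice).

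Zbed6 encodes a DNA-binding protein derived from a transposon, and its gene lies within Zc3h11a on the same strand of chromosome 1. Its values were 8.71, 10.5, 8.39 and 8.57 CPM in the low and 11.5 to 20.7 CPM with a median of 16.2 in the high group, a difference of -0.89 (SE 0.14, adjusted p 0.209). Zc3h11a differed by -0.05 (SE 0.09). Slc35a5, a nucleotide-sugar transporter family gene, was at 24.5, 22.4, 33.2 and 30.8 CPM against 35.2 to 52.2 CPM (-0.65, SE 0.13, adjusted p 0.321). Tbc1d24, needed for synaptic vesicle traffic and known for epilepsy when mutated in people, was at 67.7, 59.8, 68.2 and 73.6 CPM against 81.4 to 122 CPM (-0.51, SE 0.12, adjusted p 0.471). Sbsn, the gene of the secreted epithelial protein suprabasin, was at 6.48 to 8.51 CPM against 8.84 to 15.3 CPM (-0.72, SE 0.16). Tbc1d24 overlaps Ntn3 and Sbsn overlaps Tmem147os, each on the same strand. Tgtp1, an interferon-inducible GTPase gene with near-identical copies, was at 0.135 to 0.751 CPM against 1.17 to 3.02 CPM (-1.77, SE 0.39). The last pair are transcripts without a known protein. Gm37396, which overlaps Dpp10, was at 0.528 to 2.38 CPM against 2.99 to 6.46 CPM (-1.94, SE 0.34, adjusted p 0.292). Wbscr25, antisense to Cldn3, was at 0.295 to 0.556 CPM against 0.886 to 2.43 CPM (-1.79, SE 0.35, adjusted p 0.303), and the longest run of a single base in its transcripts, a feature described next, was 25. Whether the counting used strand is not given in the sources used here, so reads of overlapping genes cannot be told apart.

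**Figure D2:**
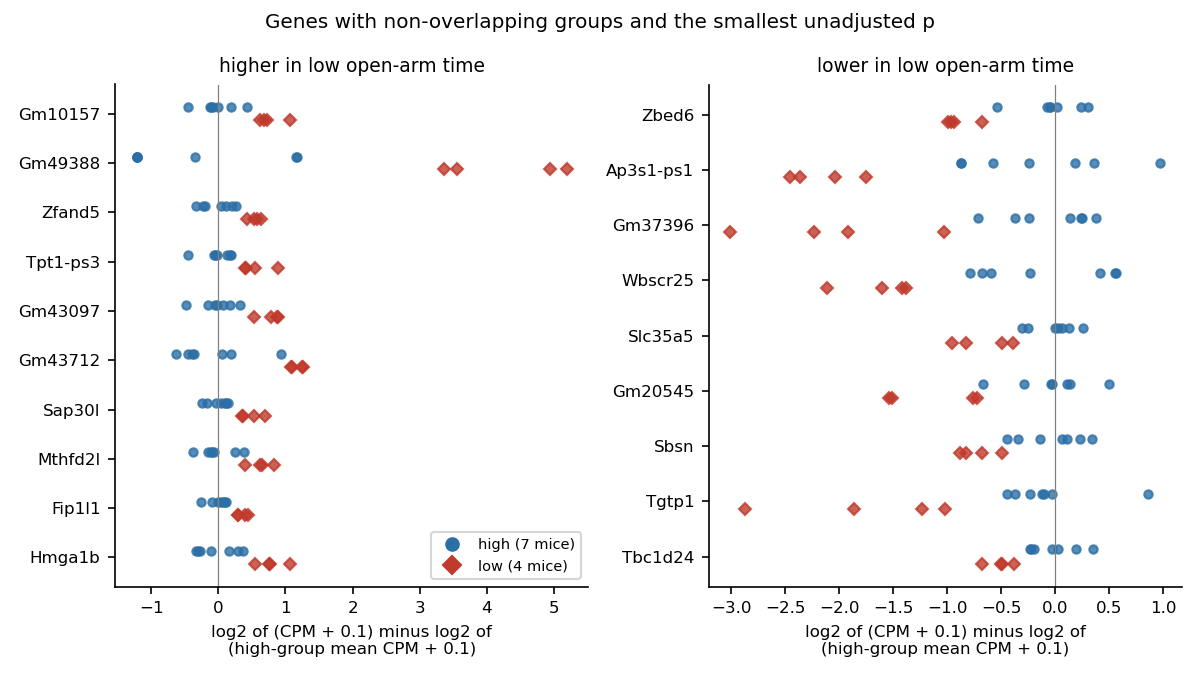
Each point is 1 mouse, red diamonds for the 4 low and blue circles for the 7 high mice, as log2 of CPM + 0.1 minus the same of the high-group mean, for the 10 higher and 9 lower genes described, whose groups do not overlap. Most points sit within 1 log2 unit of the high-group mean, while the low mice lie several units away for Gm49388.

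A further set of genes that were lower in the low group shared a sequence feature. It was noticed after the values were seen and is given as a description. Their transcripts carry long runs of a single base, A or T. Klf13, a zinc-finger transcription factor of the Krüppel-like family, had the highest level of those described. It stood at 688, 670, 149 and 551 CPM in mice 1, 2, 9 and 10, and at 842 CPM (mouse 11), 2036 (mouse 12), 2759 (mouse 3), 3816 (mouse 4), 6711 (mouse 7), 8663 (mouse 6) and 10002 CPM (mouse 8) in the high group. The groups did not overlap, and counts of this 1 gene made up 1.0% of the library of mouse 8 and 0.0149% of that of mouse 9. The fitted difference was -3.27 (SE 0.79, adjusted p 0.583). The high mice themselves spread widely and did not follow open-arm time, since mouse 8, with the lowest open-arm time of the group, had the most and mouse 11, at its median, the least. The runs are shown here from the GENCODE M21 transcripts on GRCm38, 5′ to 3′ in the direction of transcription, with the run in capitals and up to 15 bases on either side in lower case. Klf13 holds 30 T in its 3′ untranslated region (chr7:63887650-63887679, minus strand). The other 3 are non-coding: Gm14667, a processed pseudogene (chrX:64843490-64843549, minus strand), and the transcripts Gm43541, overlapping Ift81 (chr5:122567998-122568061, minus strand), and Gm37144, overlapping Mrpl15 (chr1:4779128-4779189, minus strand).
Klf13: TTTTTTTTTTTTTTTTTTTTTTTTTTTTTT
Gm14667: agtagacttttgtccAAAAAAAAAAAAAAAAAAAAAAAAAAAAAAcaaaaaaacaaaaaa
Gm43541: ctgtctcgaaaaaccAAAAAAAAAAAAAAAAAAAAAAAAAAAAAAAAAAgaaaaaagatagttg
Gm37144: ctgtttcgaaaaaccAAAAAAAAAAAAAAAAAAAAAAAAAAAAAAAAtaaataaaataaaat

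The 3 non-coding genes followed Klf13 from mouse to mouse. Gm37144 was at 5.00, 6.30, 1.34 and 3.84 CPM in the low and 7.13 to 86.8 CPM in the high group, and the ratio of Klf13 to it stayed between 101 and 143 in all 11 mice while Klf13 varied 67.2-fold and Gm37144 64.9-fold. For Gm43541 (2.87, 2.15, 0.363 and 2.23 CPM against 5.37 to 92.7 CPM) that ratio ran from 108 to 411, and for Gm14667 (2.21, 2.53, 0.589 and 2.36 CPM against 5.13 to 91.7 CPM) from 109 to 311. Their fitted differences were -3.37 (SE 0.77), -4.58 (SE 0.93) and -4.49 (SE 0.89), with adjusted p of 0.543, 0.471 and 0.471. Mouse 9 was the lowest and mouse 8 the highest for each of them. Of the protein-coding genes with such runs, 4 that were chosen after their values were seen had negative values too, while Tcf7l2, with a run of 27, had a positive one (0.42, SE 0.18, adjusted p 0.876). Prr15, whose 3′ untranslated region holds 29 T (chr6:54329811-54329839, plus strand), was at 1.97 to 6.24 CPM against 8.73 to 83.0 CPM (-3.30, SE 0.69, adjusted p 0.473). Mc1r, the melanocortin receptor that sets coat pigment, has a run of 37 and was at 0.385 to 1.64 CPM against 1.63 to 13.7 CPM (-2.81, SE 0.65). Raph1, a regulator of actin at the leading edge of cells, has a run of 25 and was at 80.3 to 232 CPM against 180 to 739 CPM (-1.29, SE 0.47). Pecam1, an adhesion molecule that marks endothelial cells, has a run of 43 and was at 9.79 to 13.7 CPM against 9.54 to 75.8 CPM (-1.40, SE 0.51, adjusted p 0.831).

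**Figure D3:**
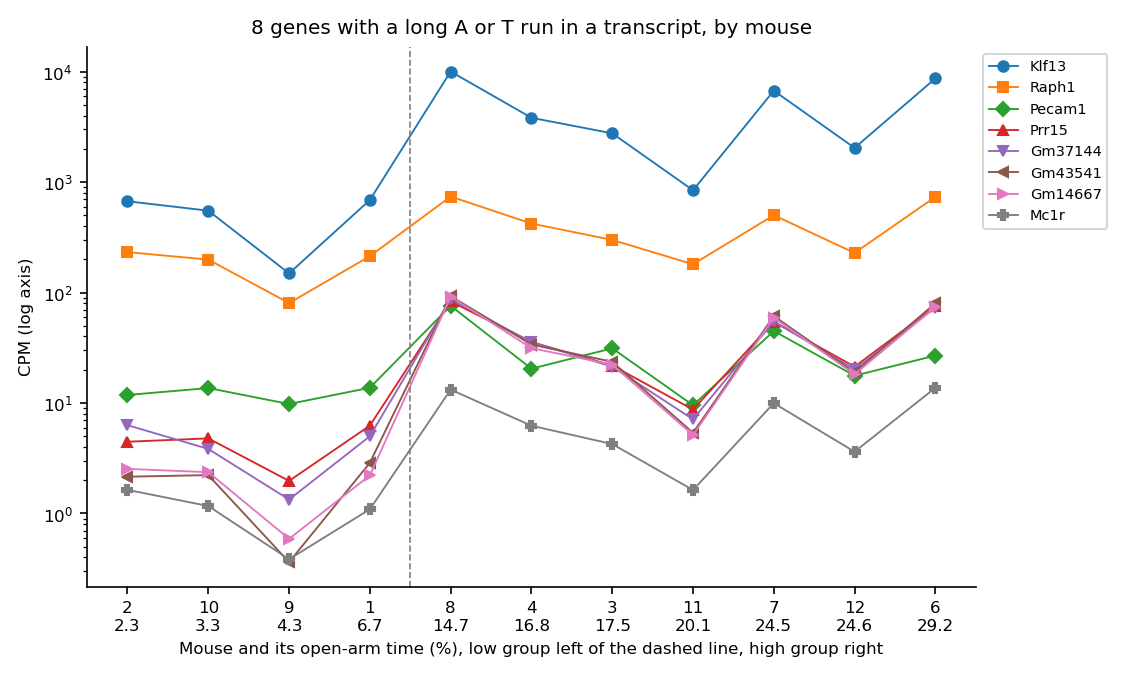
CPM on a log axis for 8 genes whose transcripts hold an A or T run of 25 bases or more, in the 11 mice ordered by open-arm time, with the low group left of the dashed line. Most lines follow each other closely, lowest in mouse 9 and highest in mouse 8 or mouse 6 for most genes, and mouse 11 of the high group comes closest to the low group.

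Over all genes tested, the share that was lower in the low group was larger where the longest run was long. Of 17579 genes whose longest A or T run was 9 bases or less, 411 (2.34%) were lower and 3.23% higher at an unadjusted p under 0.05. Of 406 genes with runs of 25 to 29 bases, 33 (8.13%) were lower and 11 (2.71%) higher. Of 167 with runs of 30 or more, 34 (20.4%) were lower and 1 (0.599%) higher, and their median difference was -0.11. In 8 of them (4.79%) the groups did not overlap, all lower, against 0.393% of all genes tested that were lower without overlap. The 573 genes with a run of at least 25 were 2.14% of the genes with a transcript sequence, and they supplied 25 of the 89 genes (28.1%) with a mean of at least 1 CPM and a fitted value under -1. They supplied none of the 43 such genes with a fitted value over 1. They also made up 16 of the 56 genes that DESeq2 called lower (28.6%) and none of its 30 higher calls. With these genes left out, a choice made after seeing the data, edgeR still called 0 genes and 1391 had an unadjusted p under 0.05, 765 of them higher. The part of the runs in these values was not tested. GC content moved with the result as well. Among genes with a mean of at least 1 CPM, in the fifth with the highest GC content (55.3% and above), 5.59% were higher and 1.93% lower at an unadjusted p under 0.05, against 2.24% and 2.72% in the fifth with the lowest.

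**Figure D4:**
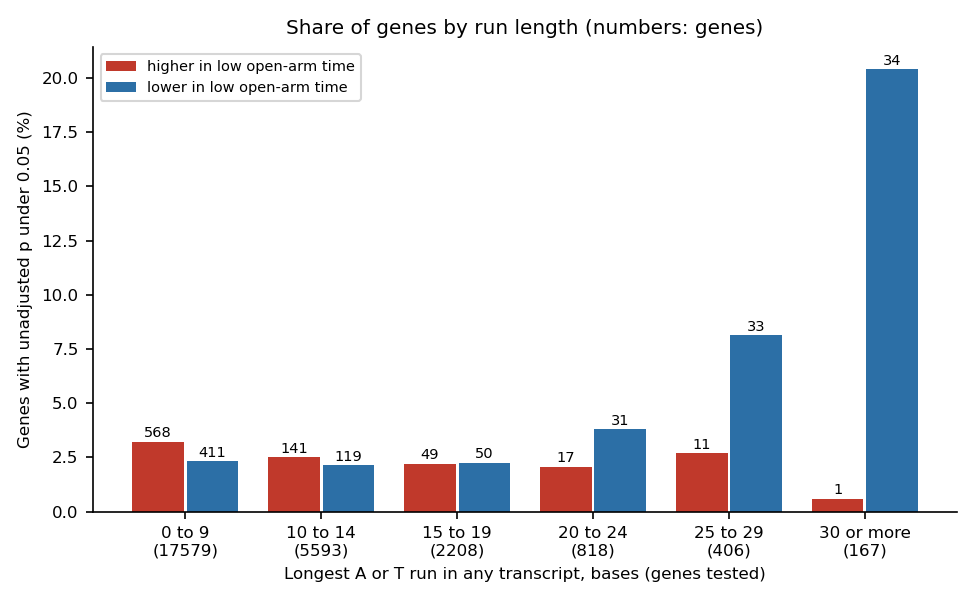
Percent of genes with an unadjusted p under 0.05 that were higher (red) or lower (blue) in the low group, by the longest A or T run in any transcript of the gene; the number over a bar counts its genes. The blue bars lie between 2.13% and 3.79% for runs under 25 bases and reach 8.13% and 20.4% for longer ones, while the red bars stay at 3.23% or less.

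The signals usually tied to avoidance were examined as lists. Of 25 signaling and metabolic lists, none held a called gene, 12 had no member with an unadjusted p under 0.05, and 22 had a median difference within 0.1 of 0 on the log2 scale. Each of those 22 medians moved by more than 1.5 times without at least 1 of the mice, so their signs are not read as directions. Stress hormone genes were among the flat lists. Of 13 genes of corticotropin-releasing factor and glucocorticoid signaling, 1 had an unadjusted p under 0.05 (7.69%, against 5.47% of all genes) and the median was -0.05. That gene was Fkbp5, a cochaperone of the glucocorticoid receptor that dampens it and is itself switched on by glucocorticoids. It was at 22.4, 22.9, 26.1 and 23.1 CPM in the low and 26.9 to 31.9 CPM with a median of 28.6 in the high group. No low mouse reached a high mouse, but the gap was narrow, from 26.1 CPM in mouse 9 to 26.9 CPM. The difference was -0.30 (SE 0.08, adjusted p 0.605). Fkbp5 overlaps 4 annotated genes, some on its own strand, so its counts are uncertain too. Sgk1, another glucocorticoid-induced gene, also had a value of -0.30 (SE 0.16), but with overlapping groups (23.1 to 38.7 and 26.7 to 45.1 CPM). The glucocorticoid receptor gene Nr3c1 (52.7 ± 8.84 and 54.0 ± 8.11 CPM) and the mineralocorticoid receptor gene Nr3c2 (40.3 ± 8.83 and 43.4 ± 15.0 CPM; SD, 4 and 7 mice) differed by less than their spread.

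Peptides showed mixed values. Of 8 opioid peptides and receptors 7 were lower in the low group, 1 of them at an unadjusted p under 0.05 (12.5%), and the median was -0.34, or -0.55 without mouse 1. Oprl1, the nociceptin receptor, was at 47.3, 47.7, 48.7 and 35.8 CPM against 45.4 to 69.5 CPM, so that the groups overlapped, and differed by -0.27 (SE 0.12, adjusted p 0.883). The delta receptor gene Oprd1 was at 3.43 ± 0.969 and 4.52 ± 1.30 CPM, and Penk, the enkephalin precursor and a gene of striatal neurons too, at 268 ± 74.7 and 309 ± 168 CPM (SD, 4 and 7 mice). Of 13 other neuropeptides, Cck alone had an unadjusted p under 0.05 (7.69%). It encodes cholecystokinin, whose central receptor agonists provoke anxiety, and it was at 149, 232, 314 and 198 CPM against 98.9 to 191 CPM. Mice 2, 9 and 10 lay above every high mouse and mouse 1 lay among them, with a difference of 0.54 (SE 0.21, adjusted p 0.838). Somatostatin (Sst) was at 332 ± 117 and 317 ± 78.6 CPM. None of 21 neuropeptide receptors had an unadjusted p under 0.05.

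Transmitter receptors were close to level. Of 16 ionotropic glutamate receptor subunits 1 had an unadjusted p under 0.05 (6.25%). Grin3a, an NMDA receptor subunit that lowers calcium flow, was at 70.5, 62.3, 62.7 and 62.2 CPM against 66.6 to 89.7 CPM, and mouse 1 alone of the low group reached the high values. The difference was -0.33 (SE 0.09, adjusted p 0.606). Gria2, the subunit that makes AMPA receptors impermeable to calcium, was at 617 ± 9.81 and 654 ± 43.3 CPM. No member of the GABA-A subunits (15 tested, median -0.06), the metabotropic glutamate receptors (8, -0.06) or the adrenergic receptors (9, -0.10) had an unadjusted p under 0.05. Of 13 serotonin receptors 12 had negative values, with a median of -0.09 and 1 at an unadjusted p under 0.05 (7.69%). That was Htr4, at 3.02, 4.03, 2.29 and 1.59 CPM against 2.78 to 6.31 CPM (-0.65, SE 0.27, adjusted p 0.860), while Htr2c was at 125 ± 13.5 and 133 ± 19.4 CPM. Of 17 genes of synaptic vesicle release 15 had positive values, with a median of 0.08. Syn1, a phosphoprotein that tethers vesicles, was the 1 member with an unadjusted p under 0.05 (5.88%), at 527, 548, 631 and 569 CPM against 410 to 551 CPM (0.27, SE 0.10, adjusted p 0.804). Snap25, of the fusion complex, was at 2076 ± 302 and 1796 ± 167 CPM.

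Immediate early genes, whose transcripts follow neuronal firing within minutes, had positive values in 16 of 20 cases with a median of 0.10, and none had an unadjusted p under 0.05. The mice ran the maze at 9 weeks and the social test at 11 weeks, so the tissue was not taken directly after the maze. The median was -0.0081 without mouse 10, 0.03 without mouse 2, 3 or 12, and 0.25 without mouse 1. Jund was at 57.8, 116, 147 and 93.4 CPM against 40.6 to 107 CPM, and Nr4a2 at 16.5, 124, 35.0 and 34.4 CPM against a median of 23.6 and a highest value of 83.2 CPM. Mouse 2 set the highest Nr4a2 value, and both genes overlapped between the groups.

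Transcripts of the mitochondrial genome formed the list with the largest share of small p-values. Of the 13 protein genes 12 were higher in the low group and 8 had an unadjusted p under 0.05 (61.5%, against 5.47% of all genes), none passed the adjusted test, and none separated the groups fully. All 13 are transcripts of 1 genome, so their p-values are not independent and the share is not a count of separate results. The median was 0.33. The ATP synthase subunit gene mt-Atp8 was at 2719, 3503, 2024 and 2765 CPM in mice 1, 2, 9 and 10 and at 1182 to 2203 CPM in the high group (0.58, SE 0.16, adjusted p 0.603). The complex I subunit gene mt-Nd1 was at 11236 ± 1547 and 8590 ± 934 CPM (0.39, SE 0.11, adjusted p 0.606; SD, 4 and 7 mice). The cytochrome b gene mt-Cytb differed by 0.31 (SE 0.10) and the cytochrome oxidase gene mt-Co1 by 0.20 (SE 0.10). Mouse 9 was the lowest low mouse for all of these. The 13 genes summed to 136437 ± 23758 CPM in the low and 112841 ± 14844 CPM in the high group. The sum of mouse 9, 100992 CPM, lay near the low end of the high group's range of 94251 to 129958 CPM. Mouse 9 carried 16227 CPM on 4 nuclear pseudogenes that copy part of the mitochondrial genome (Gm10925, Gm28437, Gm28438 and Gm28661), where no other mouse exceeded 4997 CPM. With these added the sums were 141251 ± 16232 and 113796 ± 14194 CPM. In the nuclear-encoded partners of the same respiratory chain, 5 of 75 genes were higher and 1 lower at an unadjusted p under 0.05 (8%), and the median was 0.03. Cox6b1, a cytochrome oxidase subunit gene, was at 188, 222, 182 and 185 CPM against 126 to 167 CPM without overlap (0.38, SE 0.09, adjusted p 0.473), and Atp5k at 79.7, 85.7, 83.4 and 73.5 CPM against 43.6 to 75.2 CPM (0.39, SE 0.12). Both encode small proteins, as did the ribosomal genes with the smallest p. Of 79 cytosolic ribosomal protein genes 3 were higher and 5 lower at that threshold (10.1%), with a median of 0.02. Rps29 was at 59.5, 70.5, 88.3 and 77.6 CPM against 77.5 to 138 CPM (-0.66, SE 0.16, adjusted p 0.493), Rps27 at 3.31 ± 0.554 and 7.17 ± 3.49 CPM, and Rplp1 at 358 ± 39.7 and 443 ± 84.2 CPM. These families have many pseudogenes, and reads shared with them make single members uncertain. Of 39 proteasome subunits Psma5 had an unadjusted p under 0.05 (2.56%), at 48.0, 41.6, 53.7 and 47.4 CPM against 50.2 to 66.1 CPM (-0.33, SE 0.09, adjusted p 0.603). Among cholesterol synthesis genes Fdps, which makes farnesyl diphosphate, was at 50.0 ± 5.22 and 59.3 ± 5.59 CPM (-0.25, SE 0.09).

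**Figure D5:**
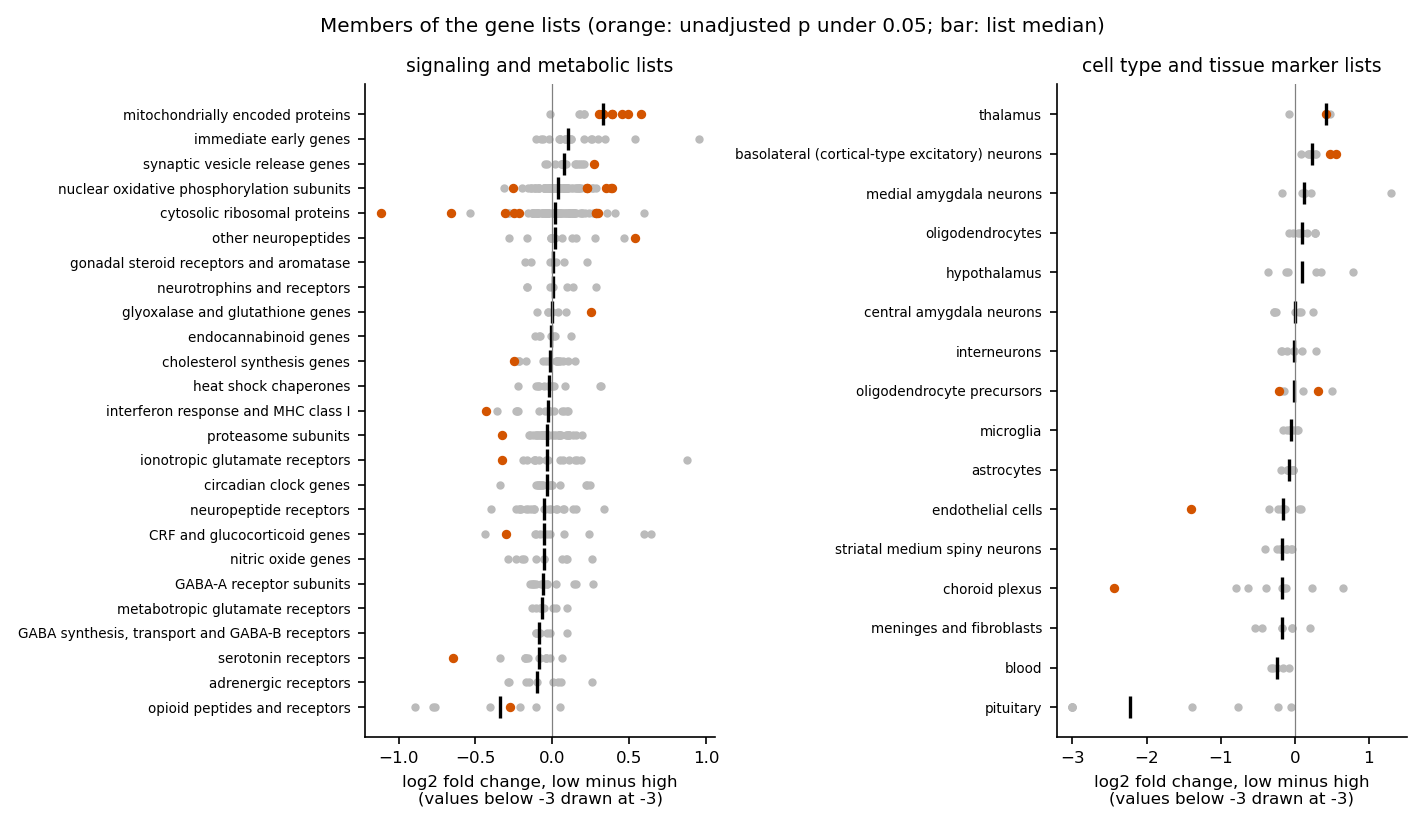
Each point is 1 gene, as the log2 fold change of low minus high, in 25 signaling and metabolic lists and 16 marker lists; orange points have an unadjusted p under 0.05 and black bars are medians. Most medians lie near 0, the mitochondrially encoded genes have a median of 0.33, and the pituitary markers have a median of -2.23, which is -0.31 without mouse 11.

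Marker lists were read for the makeup of the tissue. Of 16 lists none held a called gene and 11 had no member with an unadjusted p under 0.05. All 8 markers of basolateral, cortical-type excitatory neurons had positive values, as had 13307 of all 26963 genes tested. Their median was 0.24, and 0.12 without mouse 9. An unadjusted p under 0.05 was found for 2 of them (25%, against 5.47% of all genes). Nrgn is among these markers, and the study reported it as upregulated on these same mice, so its sign is not independent. Neurod6, a transcription factor of projection neurons, was at 41.4, 41.5, 44.7 and 23.7 CPM against 25.6 ± 7.35 CPM (SD, 7 mice; 0.56, SE 0.22, adjusted p 0.85), with mouse 10 inside the high range. Tbr1, which specifies such neurons, was at 60.8, 47.7, 85.2 and 94.8 CPM against 43.9 to 76.9 CPM (0.47, SE 0.19, adjusted p 0.85), whereas Camk2a was level at 2447 ± 167 and 2301 ± 338 CPM. The summed level of these markers was 4345 to 5285 CPM in the low and 3312 to 4974 CPM in the high group. Central amygdala markers had a median of 0.0004 and interneuron markers one of -0.01. All 9 astrocyte markers (median -0.08) and all 9 striatal markers (-0.17) had negative values, none at an unadjusted p under 0.05. The astrocyte median was 0.02 without mouse 9 and -0.02 without mouse 7, and the striatal one 0.15 without mouse 12 and -0.01 without mouse 2. Among oligodendrocyte precursor markers Olig2 was at 24.0 ± 4.40 and 19.3 ± 2.81 CPM and Pdgfra at 53.6 ± 4.20 and 62.0 ± 6.74 CPM, in opposite directions. Tcf7l2, the thalamic marker with the smallest p, was at 6.66 ± 2.29 and 4.97 ± 0.652 CPM, and its longest run was 27 bases.

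Traces of other tissue were uneven. The 8 pituitary markers summed to 58.1 CPM in mouse 4 and 18.8 CPM in mouse 11, both of the high group, and to 2.62 to 6.47 CPM in the other 9 mice, of which low mouse 1 had the most. Their median difference of -2.23 was -1.18 without mouse 4 and -0.31 without mouse 11. Prl, the prolactin gene, was at 2.16, 0.135, 0 and 0.0556 CPM in the low group and at 0.0899 to 32.1 CPM with a median of 0.929 in the high group, where mouse 4 held the highest value. Growth hormone (Gh) reached 20.03 CPM in the same mouse, and the glycoprotein hormone subunit gene Cga was at 0 in all low mice and 2.78 CPM in mouse 11. The potassium channel gene Kcnj13, a choroid plexus marker, was at 0.172, 0.135, 0.204 and 1.20 CPM against 0.300 to 5.16 CPM (-2.43, SE 0.96, adjusted p 0.851). Transthyretin and the other choroid plexus markers summed to overlapping levels, as given above. The part of these traces in other genes' values was not tested.

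Values are given for 19 of the genes that the study names. Prl and Kcnj13, which it reported as the most downregulated, stand in the paragraph above, and the others follow. Of the 19, those the study chose on these same mice are not independent evidence, and Esr1 was added to its network from known protein interactions. Scand1, a SCAN-domain gene that overlaps Cnbd2, was at 4.86, 16.1, 25.8 and 10.8 CPM against 3.36 to 11.8 CPM (1.19, SE 0.46, adjusted p 0.844). Nxph3, a ligand of neurexins, was at 5.95, 21.6, 15.3 and 9.12 CPM against 4.59 to 8.86 CPM (1.02, SE 0.29, adjusted p 0.608), and Nrxn2, a neurexin, at 386, 469, 547 and 421 CPM against 238 to 519 CPM (0.43, SE 0.18, adjusted p 0.869). In Nxph3 the low mice 2, 9 and 10 lay above every high mouse and mouse 1 lay among them. The G protein gene Gnai2 (243 ± 100 and 161 ± 54.1 CPM), the calcium channel gene Cacna1a (161 ± 75.9 and 103 ± 35.1 CPM), the clathrin light chain gene Cltb (154 ± 10.5 and 131 ± 19.9 CPM) and the calmodulin-binding gene Nrgn (1000 ± 237 and 823 ± 283 CPM) were higher in the mean of the low group, with adjusted p from 0.916 to 0.986. Pparg, a lipid-sensing nuclear receptor, was at 0.546, 8.85, 1.72 and 6.51 CPM against 0.611 to 4.10 CPM, and Capn11, a protease gene, at 0.172, 10.5, 0.929 and 1.92 CPM against 0.0278 to 7.28 CPM. Mice 2 and 10 had the highest Pparg of the low group, and mouse 2 alone carried its high Capn11. Egr4 (0.34, SE 0.36), Rps6kb2 (0.26, SE 0.31), Hspa1a (0.31, SE 0.18), E2f3 (0.18, SE 0.55) and Atn1 (0.03, SE 0.30) had positive values, and Esr1 (-0.18, SE 0.31), Adgrl4 (-0.35, SE 0.35) and Pomc (-0.76, SE 0.67) negative ones, all within 2 SE of 0. Pomc, also among the pituitary markers, was at 1.29, 1.12, 1.61 and 1.14 CPM in the low group, against a high median of 1.02 CPM. Mice 4 (3.57 CPM) and 11 (7.16 CPM) lay above every low mouse, and the other high mice lay below every low mouse. A pair of gene lists rising and falling with the anxiety state comes from the same work. Of 164 tested genes of the rising list, 160 were higher in the low group and 54 had an unadjusted p under 0.05 (32.9%), with a median of 0.31. Of 37 genes of the falling list, all were lower and 9 had an unadjusted p under 0.05 (24.3%), with a median of -0.28. Both lists were chosen on these mice, 3 of the 4 low mice belonged to the most anxious state, and the counts are therefore no independent evidence of direction.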

How the data were processed

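RNA from the bilateral amygdala of 12 mice was made into stranded poly(A) libraries and sequenced as single-end reads of 75 bp. The authors quantified transcripts with Salmon, used a STAR alignment to mm10 for quality control and collapsed transcripts to genes with tximport. The submitters' processing notes also name CASAVA and DESeq2. The deposited table holds an estimated count for each of 47729 genes, as whole numbers and not normalized, so no rounding was needed. Annotation, names and transcript sequences came from GENCODE M21 on GRCm38, the same assembly as mm10, in which 47310 of the gene IDs were found. The longest A or T run is the maximum over all transcripts of a gene.

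The 11 mice were grouped by the label of open-arm time. Genes with at least 10 counts over these mice were fitted in edgeR 4.0.16 (R 4.3.3) with TMM factors, glmQLFit with the robust option and glmQLFTest, and adjusted by Benjamini-Hochberg over all genes tested. The SE given with a fitted difference was not taken from the fit. It is the size of the difference divided by the square root of its quasi-likelihood F statistic. Behavior was tested by exact permutation and adjusted over 6 measures. Named genes were those called, the 10 per direction with the smallest unadjusted p among non-overlapping genes of at least 1 CPM, the 2 highest and the 2 with the smallest p in each list, and 19 genes that the study names. Klf13, Prr15, Mc1r, Raph1, the Gm genes with runs or of mitochondrial origin, Ap3s1, Tpt1 and Zc3h11a were chosen after their values were seen. Of the genes lower in the low group, 1 that the rule selects is not reported here. The members and lists were chosen with earlier results of these data known. The alternatives, including DESeq2 1.42.0 and limma 3.58.1, are described in the closing section, and the fits were tested on simulated data. Intervals were not computed, since the replicate spread over mice carries the error.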

Additional observations from a re-analysis of the deposited data

Results flagged for a closer look

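A single mouse stood apart from the rest of its group in 22 of the 182 groups of values described, counting 2 groups for each gene and measure, by Dixon's test on CPM. Chance flags about 1 in 20 groups.

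In the low group mouse 1 stood apart for Grin3a (70.5 CPM), Prl (2.16 CPM), Gh (1.49 CPM) and Egr4 (9.11 CPM). It is the low mouse with the longest open-arm time. Mouse 2 stood apart for Zbed6 (10.5 CPM), Htr2c (105 CPM), Cox6b1 (222 CPM) and Capn11 (10.5 CPM), mouse 9 for Gm14667 (0.589 CPM), and mouse 10 for Oprl1 (35.8 CPM), Neurod6 (23.7 CPM) and Kcnj13 (1.20 CPM). Mouse 10 had the lowest Neurod6 and Oprl1 and the highest Kcnj13 of its group.

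In the high group mouse 4 stood apart for the pituitary hormone genes Prl (32.1 CPM) and Gh (20.03 CPM) and for Nr4a2 (83.2 CPM). Mouse 11 did so for Gm43712 (9.39 CPM), Tgtp1 (3.02 CPM) and Cga (2.78 CPM), mouse 3 for Nr3c1 (71.4 CPM), mouse 7 for Nr3c2 (75.4 CPM) and Adgrl4 (25.9 CPM), and mouse 6 for Tbr1 (76.9 CPM).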

How the results depend on the processing

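The count of 0 genes called by edgeR became 1 with filterByExpr, 1 without the robust option, 11 with PC1 of expression and 18 with total entries as a covariate, 86 with DESeq2's Wald test, 4 with limma-voom and 2 with log2 Klf13 CPM as a covariate, an alternative added after seeing the data. It stayed at 0 with DESeq2 size factors, no filter, a GC offset, mouse 5 in the low group, open-arm time as a number or a rank, and without genes with a run of 25 A or T (added after seeing the data). Leaving out each mouse gave 0 to 4 calls, 4 without mouse 11, 2 without mouse 9 and 1 without each of mice 2, 3, 7 and 8, and 1218 to 1666 genes at an unadjusted p under 0.05. Of 1314 values of 53 named genes with an unadjusted p under 0.05, 1277 kept their sign without passing, 33 passed, 27 of them under DESeq2, and 4 reversed, all with the Klf13 covariate, at 0.039 for Mc1r, 0.53 for Pecam1, 0.70 for Raph1 and 0.13 for Rplp1. Klf13 itself, whose own level is that covariate, had a fitted value of 1.76e-05 there and is not counted. Gm28437, with an unadjusted p of 0.0174 in edgeR, is not among the 53 genes either, and it reversed in 2 of 25 alternatives. Of 43 list medians, 13 kept their sign throughout. The difference in total entries (-12.9) lost its unadjusted p under 0.05 with ranks (-3.73 in mean rank) and without mouse 1, 2, 7 or 9, and ran from -17.1 to -8.76 with 1 mouse left out. Distance in the light ran from -11.1 to -4.20 percentage points, and without mouse 1 its exact p was 0.0333. The box:zone ratio differed by 0 at 5 min in ranks and ran from -0.176 to 0.125 at 5 min and from -0.293 to 0.0894 at 10 min with 1 mouse left out, turning positive at 5 min without mouse 2, 3 or 8 and at 10 min without mouse 2 or 3. The causes were not tested. No paired analysis was possible because the groups hold different mice and the labels give them no shared numbers. Depth limits genes with few counts: 26963 genes were tested, against 34511 with no filter.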

Other observations

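Mouse 5 is in neither group. Its open-arm time was 7.34%, below the limit of the low group, with 27 entries, and its library listed 23768 genes with a count, against 26378 to 28196 in the other mice. Its values were scaled with all 12 mice, while the group ranges came from scaling the 11 mice without it. Of the 19 genes named for groups that do not overlap, it stood within or beyond the range of the high group for 12. It lay within the range of the low group for 4 and between the groups for 3. Placements near an edge are uncertain, as for Tbc1d24 at 73.55 CPM against a highest low value of 73.62 CPM. Zbed6 was at 22.7 CPM and Klf13 at 3993 CPM in this mouse, where the low group had at most 10.5 and 688 CPM. Fkbp5 was at 31.0 CPM, inside the high range. Gm10157 (14.5 CPM) and Gm37396 (1.40 CPM) lay inside the low range. No explanation was tested, and a single mouse cannot be compared with a group beyond these values.

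The 4 nuclear copies of mitochondrial sequence differed widely between mice. Gm28438 was at 784, 530, 710 and 705 CPM in the low group, and in the high group at 660 CPM in mouse 11, 146 CPM in mouse 12, 0.361 CPM in mouse 3 and 0 in mice 4, 6, 7 and 8. Gm10925 and Gm28661 were at 6546 and 7849 CPM in mouse 9. None of the copies exceeded 1 CPM in mouse 4, 6, 7 or 8, and all were at 0 in mouse 5. Mice 4 to 8, consecutive in number, also had the highest Klf13 values. These were 3816 to 10002 CPM, with mouse 5 at 3993 CPM on its own scaling. All low mice lie outside these numbers, as do the high mice 3, 11 and 12, so group and mouse number are partly confounded. The labels do not say what the numbers stand for, and a part of mouse order in these values was not tested.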
